A study of Mus musculus with 4 samples.

Results

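The genes of cholesterol synthesis and transport were examined in bulk RNA from the cerebellum of WT mice and of heterozygous *Kdm3b* mutant mice. The list held 33 genes, chosen by name and matched to the deposited tables by NCBI gene number, out of 24532 gene identifiers in all. All 33 genes were found, each as a single entry. All of them reached the minimum used for testing, an average of 1 TPM or more across the 4 libraries, which 13652 genes reached. TPM, the unit of all levels below, is a read level per transcript length on a scale that sums to 1000000 in each library.

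The groups were 2 WT and 2 *Kdm3b*+/- mice, each giving a single library, and no treatment was given. The mice were adult male littermates, and the tissue was the granule-cell-enriched (GCE) part of vermal slices, separated by hand from the Purkinje-cell-enriched part. The mutant allele carries the gene-trap vector pGT0lxf in an intron of *Kdm3b* and came from 1 ES cell line, backcrossed to C57Bl/6N and then to C57Bl/6J. It is present in every cell, so the model is restricted to no cell type. *Kdm3b* encodes a demethylase of mono- and di-methylated lysine 9 of histone H3.

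Cholesterol barely crosses the blood-brain barrier, so brain cells make their own. Acetyl-CoA is built up to mevalonate, then to isoprenoid units, to squalene, and through lanosterol to cholesterol. When sterol in the endoplasmic reticulum is low, SCAP carries the transcription factor SREBP2 to the Golgi for cleavage, and the cleaved factor turns on the synthesis genes; INSIG proteins hold SCAP back when sterol is high. In the brain, astrocytes load cholesterol onto APOE through ABC transporters, oligodendrocytes use large amounts for myelin, and neurons remove the excess as 24-hydroxycholesterol.

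Between 4.92 and 6.69 gigabases were aligned per library. The targeted gene *Kdm3b* stood at 9.10 and 11.0 TPM in WT and at 8.30 and 7.90 TPM in heterozygous animals, a log2 fold change of −0.27 (SE 0.17, limma, adjusted p = 0.424; −0.40 without WT mouse 1). TPM covers all exons of the gene, those before the trap included, so it is a weak check of the genotype. All 11 granule cell markers reached the minimum, with a summed TPM of 4395 to 5264 over the libraries. WT mouse 1 stood apart in 3 marker lists. Its Purkinje cell markers summed to a TPM of 1345, against 660 in WT mouse 2 and 603 to 725 in the *Kdm3b*+/- mice. Its interneuron and red blood cell markers were high as well, with sums of 328 and 708 against at most 184 and 312 in the other libraries. The red blood cell sum was high through a single globin gene, and the interneuron sum mainly through *Pvalb* (290 of the 328), which Purkinje cells express too. The cholesterol genes whose values are given mouse by mouse below therefore also have their difference without this mouse. In bulk tissue, fewer cells of a type and less RNA per cell cannot be told apart.

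The genes were far apart in level. *Apoe*, which encodes the main lipid carrier protein of the brain, had a mean TPM of 5685 in WT mice, and *Soat1*, which encodes the enzyme that esterifies cholesterol for storage, had 2.78. Apart from *Apoe*, the highest mean TPM in WT mice was 177, in the farnesyl diphosphate synthase gene *Fdps*. Of the sterol synthesis genes, *Lss* (lanosterol synthase) was lowest, with a WT mean of 5.83. The 4 mice kept the genes in much the same order, and the difference between genotypes was small beside the span of levels.

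**Figure D1:**
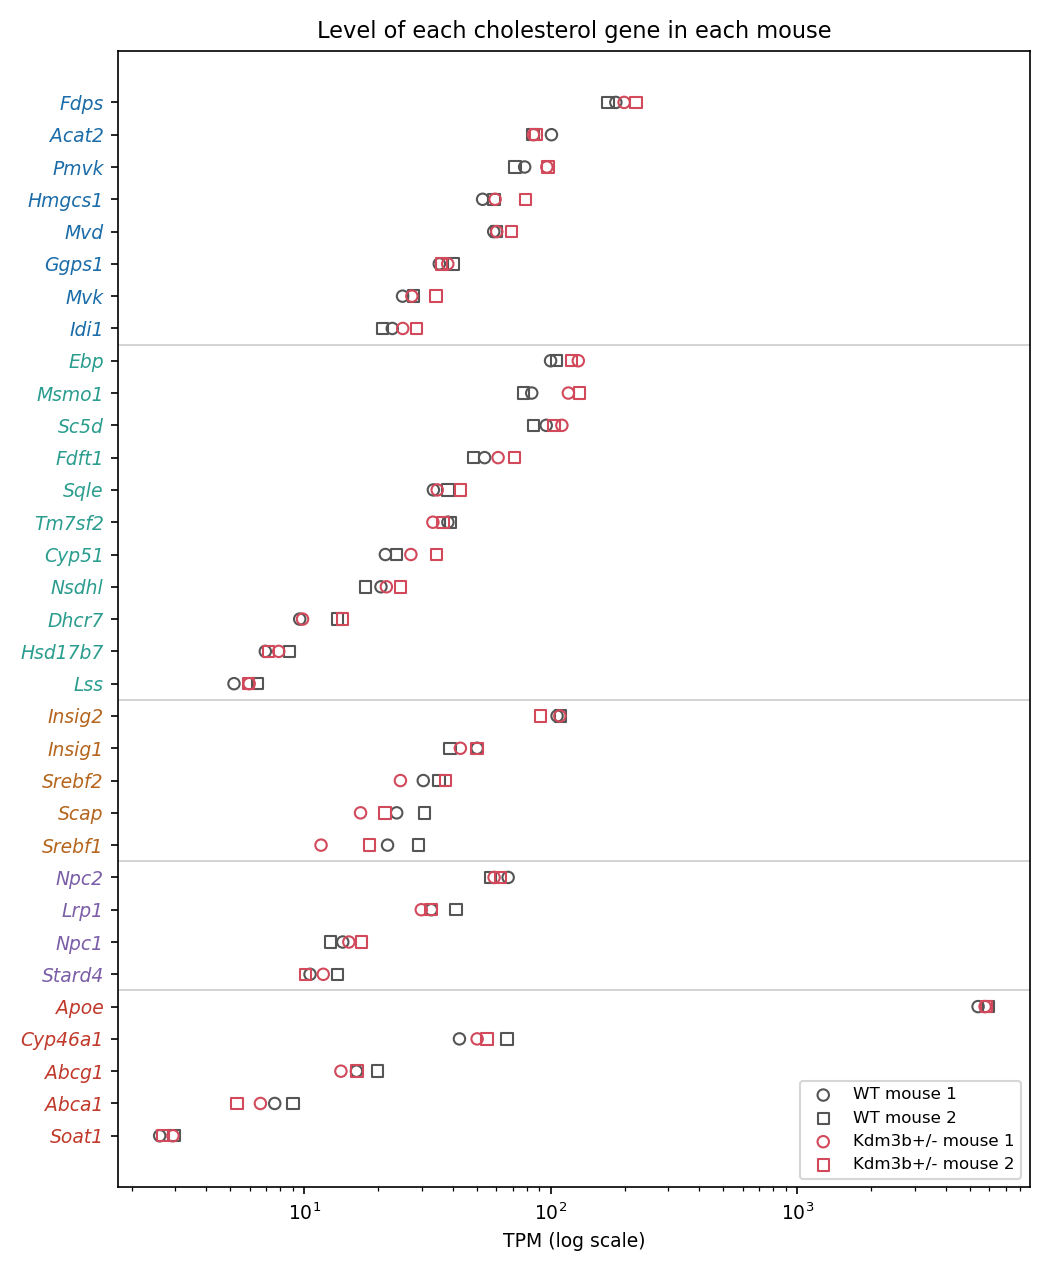
TPM of the 33 cholesterol genes (log axis) in each of the 4 mice, ordered within each role by mean level. *Apoe* lies between 5413 and 5957 in the 4 mice, no other gene lies above 222, and the *Msmo1* values of the *Kdm3b*+/- mice (118 and 131) lie to the right of those of the WT mice (83.7 and 77.5).

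The comparison of genotypes asked which genes differ in the tissue when 1 copy of *Kdm3b* is disrupted. A gene was called differentially expressed (DEX) when limma on log2(TPM + 1) gave it an adjusted p under 0.05 with a change of more than 1.2-fold. No cholesterol gene was DEX by this fit, where 0.461% of all tested genes were, 0.117% higher and 0.344% lower. The paper, which used another model (DESeq2), called many more DEX genes and counts *Srebf1* among its lower ones. It describes those lower genes as tied for the most part to lipid metabolism. At an unadjusted p under 0.05, 4 of the 33 genes were higher in *Kdm3b*+/- mice (12.1%, against 5.47% of all tested genes) and 3 were lower (9.09%, against 11.5%), which makes 7 in either direction (21.2%, against 17% of all tested genes). The higher genes were *Msmo1*, *Cyp51*, *Pmvk* and *Fdft1*, all of them synthesis enzymes. The lower genes were *Srebf1*, *Scap* and *Abca1*, none of them an enzyme of synthesis.

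Most synthesis enzymes had positive log2 fold changes. Of the other 14 genes, 10 had a negative one, where 60.4% of all tested genes did. Of the 19 synthesis enzymes, 15 had a positive log2 fold change, where 39.6% of all tested genes did. In 10 of them both *Kdm3b*+/- mice lay above both WT mice, a pattern that 19.2% of tested genes showed. In 1 of them, *Tm7sf2*, both lay below, which was so for 32% of tested genes. Over all 33 genes the groups were separate in 16 (48.5%, against 51.3% of tested genes in either direction). The median log2 fold change was 0.24 for the 19 enzymes, −0.11 for the other 14 genes and −0.070 for all tested genes. After a correction for transcript length and GC content these medians were 0.27, −0.020 and 0.0012. The summed TPM of the 19 enzymes came to 1026 and 999 in WT and to 1150 and 1246 in heterozygous animals, a ratio of 1.18 between the means. The median of the enzymes stayed positive under each normalization and with each mouse left out. Without *Kdm3b*+/- mouse 2 it was 0.089, and without WT mouse 1 it was 0.21. These medians and sums carry no test, since the genes share the same 4 libraries.

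**Figure D2:**
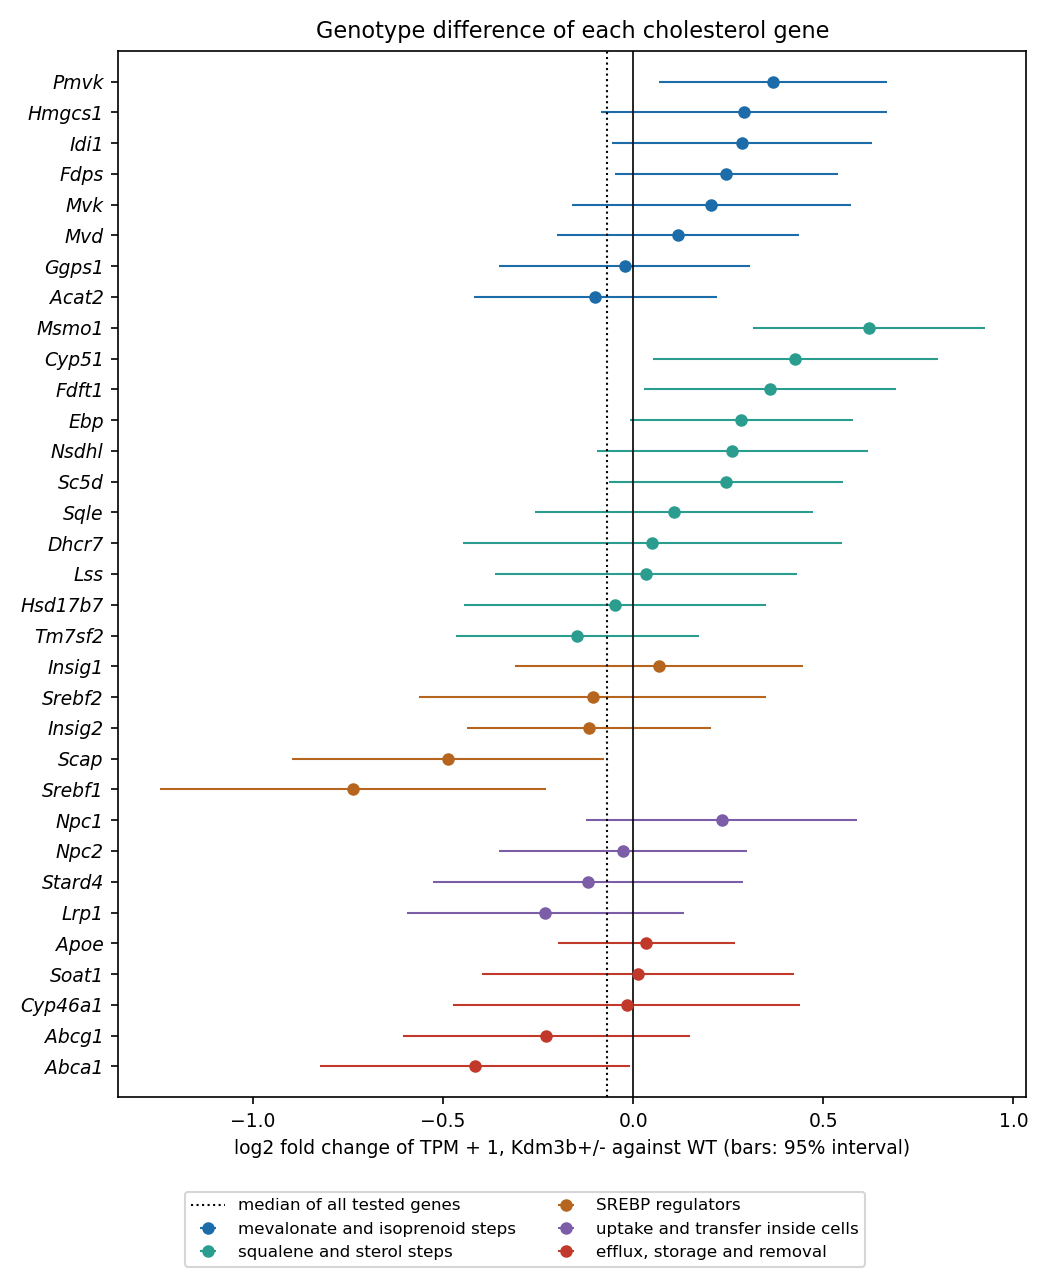
Log2 fold change of TPM + 1 between *Kdm3b*+/- and WT mice (2 mice each) for the 33 genes, coloured by role, with 95% intervals from limma; the dotted line is the median of all tested genes (−0.070). The synthesis enzymes lie mostly to the right of 0, with *Msmo1* at 0.62, and *Srebf1* lies furthest to the left, at −0.74.

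Among the 8 genes of the mevalonate and isoprenoid steps, 1 was higher at an unadjusted p under 0.05, as 5.47% of all tested genes were. *Pmvk*, which encodes phosphomevalonate kinase, measured 78.4 and 71.7 TPM in WT animals against 96.4 and 97.5 TPM in the heterozygotes. The groups did not overlap, and the *Kdm3b*+/- mice were close to each other. The log2 fold change was 0.37 (SE 0.13, limma, adjusted p = 0.234), and it was 0.43 without WT mouse 1. *Pmvk* has a short transcript of 1194 bases, and a loess correction that removes trends with length and GC content from the libraries moved the value to 0.27.

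*Fdps*, which makes the isoprenoid farnesyl diphosphate, gave 184 and 170 TPM in the WT pair and 198 and 222 TPM in the heterozygous pair. The groups were separate here too, by a small gap, with a log2 fold change of 0.24 (95% interval −0.05 to 0.54, limma, adjusted p = 0.366) and of 0.30 without WT mouse 1. *Acat2*, which encodes the cytosolic thiolase at the entry of the pathway, was at 101 and 84.6 TPM in WT and 85.1 and 87.0 TPM in heterozygous animals. Its groups overlapped, WT mouse 1 alone being high, and its log2 fold change of −0.10 turned to 0.025 without that mouse. The groups were also separate for *Hmgcs1* (HMG-CoA synthase, 0.29) and *Idi1* (isopentenyl diphosphate isomerase, 0.29). They overlapped for *Mvk* (mevalonate kinase, 0.21), *Mvd* (mevalonate decarboxylase, 0.12) and *Ggps1*, whose product makes the geranylgeranyl diphosphate used for protein prenylation (−0.023).

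The 11 genes of the squalene and sterol steps held the gene with the lowest adjusted p of the list. *Msmo1* encodes the methylsterol monooxygenase that starts the removal of the methyl groups at carbon C-4 of the sterol. Its TPM values were 83.7 and 77.5 in WT animals (80.6 ± 4.42, mean ± SD, n = 2) and 118 and 131 in heterozygous animals (125 ± 9.35, n = 2). The gap between the groups was wider than the difference between the mice of either group. The log2 fold change was 0.62 (SE 0.14, 95% interval 0.31 to 0.93, limma, adjusted p = 0.107). It was 0.68 without WT mouse 1 and lay between 0.54 and 0.70 with each mouse left out in turn.

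*Cyp51*, the lanosterol demethylase that acts shortly before *Msmo1* in the pathway, stood at 21.3 and 23.7 TPM in WT and at 27.1 and 34.5 TPM in *Kdm3b*+/- animals. The groups did not overlap, with *Kdm3b*+/- mouse 2 well above the others. The log2 fold change was 0.43 (SE 0.17, limma, adjusted p = 0.251), with 0.35 without WT mouse 1 and 0.26 without *Kdm3b*+/- mouse 2. *Fdft1*, which encodes squalene synthase, the first enzyme committed to sterols, was at 53.9 and 48.7 TPM in WT and 61.2 and 71.3 TPM in heterozygous animals. The groups did not overlap here either, and the log2 fold change was 0.36 (SE 0.15, limma, adjusted p = 0.264), with 0.43 without WT mouse 1 and 0.55 after the length and GC correction.

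*Ebp*, the sterol isomerase, was the most abundant gene of these steps, at 99.8 and 105 TPM in WT and 129 and 121 TPM in heterozygous animals. The groups were separate, and the log2 fold change was 0.28 (95% interval −0.01 to 0.58, limma, adjusted p = 0.304) and 0.25 without WT mouse 1. The groups were also separate for *Nsdhl* (sterol dehydrogenase, 0.26) and *Sc5d* (sterol C5-desaturase, 0.24), both higher in the *Kdm3b*+/- mice. Both *Ebp* and *Nsdhl* lie on the X chromosome. *Tm7sf2*, a sterol reductase, was at 38.3 and 39.1 TPM in WT and at 33.3 and 36.5 TPM in heterozygous animals (log2 fold change −0.15, and −0.16 without WT mouse 1). The groups overlapped for the remaining 4 genes. The log2 fold change was 0.11 for *Sqle* (squalene epoxidase), 0.034 for *Lss*, −0.048 for *Hsd17b7* (the ketosteroid reductase of the C-4 demethylation) and 0.050 for *Dhcr7* (the reductase of 7-dehydrocholesterol). In *Dhcr7* the second mouse of each group was the higher one, with 13.6 against 9.59 in WT mice and 14.3 against 9.84 in *Kdm3b*+/- mice. Without WT mouse 1 the value was −0.18 for *Dhcr7* and −0.10 for *Lss*.

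The promoters of the 33 genes were read for motifs of the factors known to act on this pathway. SREBP binds sterol regulatory elements together with NF-Y, which binds CCAAT boxes, and SP1, which binds GC boxes. Promoter windows from 250 bases before to 50 bases after each annotated start were found in RefSeq (GRCm38.p6) for 27 of the 33 genes, with none for *Fdps*, *Fdft1*, *Sqle*, *Npc1*, *Stard4* and *Abcg1*. Motifs were searched on both strands, and no 2 different motifs overlapped in these windows. The CCAAT box (CCAAT) was found in 22 of the 27 genes (81.5%), against 42.9% of the tested genes with a window, and in all 9 genes of the squalene and sterol steps with a window. Counted by window, since some genes have several, it was in 62.2% of the windows of the list and in 37.4% of all windows. The GC box (GGGCGG) was found in 24 genes (88.9%, against 68.5% of tested genes). By window it was in 75.7%, against 61.3% of the windows of tested genes and 35.7% of all windows. The strict sterol regulatory element (TCACNCCAC) was found in 1 gene, *Hmgcs1* (3.70%, against 1.41% of tested genes), and in 1.24% of all windows. The E-box (CACGTG) was found in 6 genes (22.2%, against 11.7% of tested genes). By window it was in 18.9%, against 9.75% of the windows of tested genes and 7.15% of all windows. The DR4 element of the liver X receptor LXR was found in no gene of the list, in no tested gene with a window and in 0.0152% of all windows. A pattern this rare cannot set the list apart from other genes. Its absence does not show that *Abca1* or any other gene lacks an LXR element. LXR elements are not marked in the sequences below. A match of letters in such a window does not show that a factor binds there.

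The 150 bases before the start are shown for *Hmgcs1*, which held the strict sterol regulatory element. They are also shown for the genes with an unadjusted p under 0.05 that had a window. Of these, *Pmvk*, *Msmo1* and *Cyp51* were higher and *Scap*, *Srebf1* and *Abca1* lower. The sequences are written 5′ to 3′ along the gene. Capitals mark exact matches, on either strand, to the patterns given above for the sterol regulatory element, CCAAT box, GC box and E-box. Looser forms of these elements were not searched and are not marked.
Hmgcs1 (chr13:119690201-119690350, forward strand): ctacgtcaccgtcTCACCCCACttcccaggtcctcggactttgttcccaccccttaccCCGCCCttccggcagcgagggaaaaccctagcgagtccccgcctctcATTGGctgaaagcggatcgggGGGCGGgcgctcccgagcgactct
Pmvk (chr3:89454391-89454540, forward strand): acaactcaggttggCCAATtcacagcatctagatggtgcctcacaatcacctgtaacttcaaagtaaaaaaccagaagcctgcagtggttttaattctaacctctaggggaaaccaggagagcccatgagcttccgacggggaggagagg
Msmo1 (chr8:64733579-64733728, reverse strand): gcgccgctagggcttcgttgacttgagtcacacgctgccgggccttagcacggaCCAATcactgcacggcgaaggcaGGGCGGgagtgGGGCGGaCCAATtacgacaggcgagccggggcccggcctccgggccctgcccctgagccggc
Cyp51 (chr5:4104698-4104847, reverse strand): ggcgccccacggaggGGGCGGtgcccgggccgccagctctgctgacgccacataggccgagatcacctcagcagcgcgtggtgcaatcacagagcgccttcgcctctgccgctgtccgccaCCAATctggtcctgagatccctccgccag
Scap (chr9:110333138-110333287, forward strand): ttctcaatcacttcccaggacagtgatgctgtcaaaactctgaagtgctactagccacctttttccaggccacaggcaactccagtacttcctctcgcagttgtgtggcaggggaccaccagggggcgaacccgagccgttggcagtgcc
Srebf1 (chr11:60220628-60220777, reverse strand): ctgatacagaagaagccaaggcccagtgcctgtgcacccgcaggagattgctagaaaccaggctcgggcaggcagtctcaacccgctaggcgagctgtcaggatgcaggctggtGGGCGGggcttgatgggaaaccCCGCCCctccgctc
Abca1 (chr4:53159896-53160045, reverse strand): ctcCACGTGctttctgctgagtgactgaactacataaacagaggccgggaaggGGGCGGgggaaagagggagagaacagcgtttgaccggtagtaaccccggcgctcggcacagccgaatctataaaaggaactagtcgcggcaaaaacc

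In these stretches the 4 synthesis genes each held a CCAAT box, and *Msmo1* held 2 of them with 2 GC boxes between. The 3 genes with lower levels held none in the same 150 bases, though the longer windows of *Srebf1*, taken over its annotated starts, held one. The genes shown were picked by their p or, for *Hmgcs1*, by its motif, and the share of tested genes with a box in such a stretch was not taken. Among other genes with a negative log2 fold change, the longer windows of *Ggps1*, *Tm7sf2*, *Hsd17b7*, *Insig2*, *Srebf2*, *Npc2* and *Cyp46a1* held one. Those of *Acat2* and *Lrp1* held none. A link between the box and the direction of the difference was not tested. *Scap* has 2 annotated starts and *Srebf1* has 3, and the start shown is the one at the 5′ end of the gene in the deposited tables.

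Of the 5 regulators of SREBP, 2 were lower at an unadjusted p under 0.05, as 11.5% of all tested genes were. *Srebf1*, which encodes SREBP1, the form that acts chiefly on fatty acid synthesis, measured 21.8 and 29.1 TPM in WT animals against 11.7 and 18.4 TPM in the heterozygotes. The groups did not overlap, but the mice of each group were far apart, and *Kdm3b*+/- mouse 2 came close to WT mouse 1. The log2 fold change was −0.74 (SE 0.23, 95% interval −1.25 to −0.23, limma, adjusted p = 0.183). It was −0.94 without WT mouse 1, −0.54 without WT mouse 2, −0.43 without *Kdm3b*+/- mouse 1, −0.49 after the length and GC correction, and −1.04 without *Kdm3b*+/- mouse 2, where it was DEX (limma, adjusted p = 0.0324).

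*Scap*, which encodes the sterol-sensing escort of SREBP, gave 23.7 and 30.7 TPM in the WT pair and 16.9 and 21.3 TPM in the heterozygous pair. The groups did not overlap, with a log2 fold change of −0.49 (SE 0.18, limma, adjusted p = 0.241) and of −0.67 without WT mouse 1. After the length and GC correction it was −0.23, where its unadjusted p was no longer under 0.05. The *Scap* transcript is rich in G and C (59.1%, against a median of 49.8% over tested genes).

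The groups overlapped for the other 3 regulators. *Insig2* was the most abundant, at 106 and 109 TPM in WT and 109 and 90.7 TPM in heterozygous animals (log2 fold change −0.12, 95% interval −0.44 to 0.20). *Insig1*, itself a target of SREBP and the INSIG protein that responds to sterol supply, was at 50.3 and 39.0 TPM in WT and 43.0 and 50.2 TPM in heterozygous animals (log2 fold change 0.068, 95% interval −0.31 to 0.45). *Srebf2*, which encodes the SREBP that drives cholesterol synthesis, was at 30.4 and 35.2 TPM in WT and 24.6 and 37.4 TPM in heterozygous animals. Its *Kdm3b*+/- mice lay on either side of both WT mice, and its log2 fold change was −0.11 (95% interval −0.56 to 0.35). Without WT mouse 1 the values were −0.14 for *Insig2*, 0.25 for *Insig1* and −0.21 for *Srebf2*.

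No gene of uptake and transfer inside cells had an unadjusted p under 0.05. *Npc2*, which binds cholesterol in the lysosome lumen, stood at 67.2 and 57.1 TPM in WT and at 58.9 and 62.7 TPM in *Kdm3b*+/- animals. Its partner in the lysosome membrane, *Npc1*, was at 14.3 and 12.8 TPM in WT and 15.2 and 17.1 TPM in heterozygous animals, with both *Kdm3b*+/- mice above both WT mice (log2 fold change 0.23, 95% interval −0.12 to 0.59, and 0.31 without WT mouse 1). The values of *Npc2* overlapped, with a log2 fold change of −0.027 that turned positive under FPKM, median-ratio scaling, quantile normalization, the length and GC correction, and without WT mouse 1 (0.088).

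*Lrp1*, a receptor for APOE-bearing lipoproteins, was at 32.8 and 41.3 TPM in WT and at 29.9 and 32.6 TPM in heterozygous animals. Both *Kdm3b*+/- mice were lower, the gap to WT mouse 1 being small, and the log2 fold change was −0.23 (limma, adjusted p = 0.483) and −0.39 without WT mouse 1. *Stard4*, which carries sterol through the cytosol, was at 10.6 and 13.7 TPM in WT and 11.9 and 10.1 TPM in heterozygous animals (log2 fold change −0.12, and −0.29 without WT mouse 1), and its groups overlapped. *Stard4* lies 1.56 Mb from *Kdm3b* on chromosome 18, and *Npc1* lies 22.5 Mb from it on the same chromosome.

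Of the 5 genes of efflux, storage and removal, 1 was lower at an unadjusted p under 0.05 (11.5% of all tested genes). *Abca1*, which encodes the transporter that hands cholesterol to lipid-poor apolipoprotein, measured 7.59 and 9.02 TPM in WT animals against 6.64 and 5.34 TPM in the heterozygotes. The groups did not overlap, with a log2 fold change of −0.42 (SE 0.18, limma, adjusted p = 0.286) and of −0.53 without WT mouse 1. *Abcg1*, which passes cholesterol on to lipidated particles, was at 16.3 and 19.8 TPM in WT and 14.1 and 16.4 TPM in heterozygous animals. Its groups touched, *Kdm3b*+/- mouse 2 lying just above WT mouse 1, and its log2 fold change was −0.23 (limma, adjusted p = 0.507) and −0.36 without WT mouse 1.

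*Apoe* gave 5413 and 5957 TPM in the WT pair and 5779 and 5857 TPM in the heterozygous pair, the latter between the WT values. Its log2 fold change was 0.035, with the narrowest interval of the list (−0.20 to 0.27). The sign of this value turned under quantile normalization, under the length and GC correction and without WT mouse 1 (−0.034). *Cyp46a1*, the neuronal 24-hydroxylase of cholesterol, stood at 42.6 and 66.6 TPM in WT and at 50.3 and 55.1 TPM in *Kdm3b*+/- animals, again between the WT values (log2 fold change −0.018, 95% interval −0.47 to 0.44), and its value without WT mouse 1 was −0.33. *Soat1* was at 2.59 and 2.96 TPM in WT and 2.93 and 2.68 TPM in heterozygous animals (log2 fold change 0.013, and −0.057 without WT mouse 1).

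The difference between genotype means was set beside the difference between single mice of 1 genotype. These are unlike measures, since a mean of 2 mice varies less than 1 mouse, so their sizes do not compare directly. The median absolute log2 difference over the 33 genes was 0.21 between the genotype means, 0.19 between the WT mice and 0.18 between the *Kdm3b*+/- mice, and over all tested genes that between the genotype means was 0.19. The genotype difference exceeded both differences between same-genotype mice in 14 of the 33 genes (42.4%), against 36.0% of all tested genes. For 23 genes the fold change was under 1.2 in size. With 2 mice against 2, an exact permutation test of a single gene cannot give a two-sided p below 0.333, and limma borrows its estimate of the spread from all genes.

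**Figure D3:**
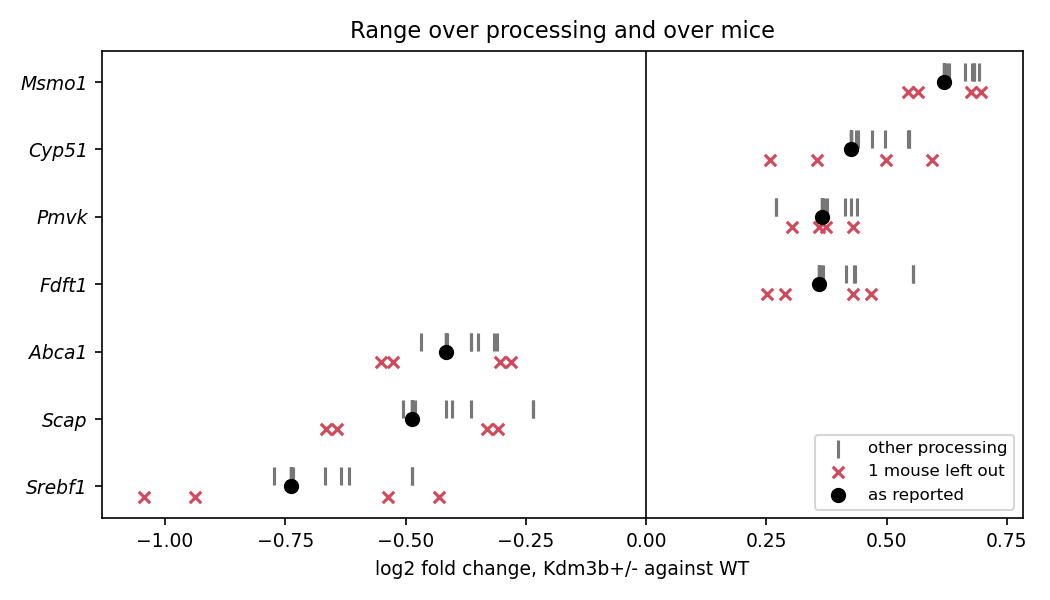
Log2 fold change of the 7 genes with an unadjusted p under 0.05, as reported (black), under other processing (grey bars) and with 1 mouse left out (red crosses). No value crosses 0; *Msmo1* ranges from 0.54 to 0.70 and *Srebf1* from −1.04 to −0.43.

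The processing moved the count of higher genes more than that of lower genes. Median-ratio scaling gave 8 higher and 2 lower genes at an unadjusted p under 0.05, and correction for length and GC content gave 11 and 2, the added genes being *Hmgcs1*, *Mvk*, *Idi1*, *Fdps*, *Ebp*, *Sc5d* and *Npc1*. The count also depended on single mice. Without *Kdm3b*+/- mouse 2, *Msmo1* alone remained among the higher genes, and without WT mouse 2 no gene remained among the lower ones, with 1 (*Abca1*) without *Kdm3b*+/- mouse 1. *Msmo1* was among the higher genes under every alternative.

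Other genes of sterol handling were taken from lists written by hand, 85 genes in 7 groups of which 83 were tested. No gene was DEX by limma. At an unadjusted p under 0.05, 20 of them were lower and 2 higher, where 11.5% of all tested genes were lower and 5.47% higher. In 41 of the 83 both *Kdm3b*+/- mice lay below both WT mice, which 32% of tested genes showed, and the median log2 fold change was −0.15. After the length and GC correction that median was −0.052, and the median of all tested genes was 0.0012.

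Of 9 genes for the processing and turnover of SREBP, SCAP and INSIG, 3 were lower and none higher at an unadjusted p under 0.05 (11.5% of all tested genes were lower), and in 6 the *Kdm3b*+/- mice lay below the WT mice (32% of all tested genes). The median was −0.26, and −0.10 after the length and GC correction. *Erlin2*, which takes part in the degradation of sterol-regulated proteins of the endoplasmic reticulum, was at 36.1 and 37.3 TPM in WT and at 23.2 and 25.1 TPM in heterozygous animals. The groups were far apart for their spread (log2 fold change −0.58, SE 0.14, limma, adjusted p = 0.135; −0.61 without WT mouse 1). *Mbtps1*, the protease that makes the first cut in SREBP, had a log2 fold change of −0.60.

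All 7 genes of LXR, its partner RXR and their targets had a negative log2 fold change on the TPM scale, 3 of them at an unadjusted p under 0.05, where 60.4% of all tested genes were negative and 11.5% were lower at that p. Their median was −0.24, and −0.14 after the length and GC correction. *Rxra* had the lowest p, at 4.14 and 3.40 TPM in WT and 2.06 and 2.24 TPM in heterozygous animals (log2 fold change −0.60, SE 0.19, limma, adjusted p = 0.187; −0.49 without WT mouse 1). The values for *Abcg4*, a cholesterol exporter of neurons, and for *Rxrb* were −0.46 and −0.36. Of the 22 tested genes of sterol transfer between membranes, 7 were lower and 1 higher at an unadjusted p under 0.05 (11.5% and 5.47% of all tested genes). *Osbpl10*, an oxysterol-binding protein, measured 6.98 and 6.90 TPM in WT animals against 2.48 and 3.61 TPM in the heterozygotes (log2 fold change −0.99, SE 0.19, limma, adjusted p = 0.0835), and −0.98 without WT mouse 1. The higher gene was *Osbpl8*, of the same family (0.41).

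Among 12 genes of lipoprotein receptors and carriers, 2 were lower and 1 higher at that p (11.5% and 5.47% of all tested genes). *Lipa*, the lysosomal acid lipase that frees cholesterol from its esters, gave 7.86 and 8.83 TPM in the WT pair and 4.70 and 6.01 TPM in the heterozygous pair (log2 fold change −0.56). *Pltp*, which moves phospholipid between lipoproteins, had 151 and 163 against 184 and 241 (log2 fold change 0.42). The carrier *Apod* had 707 and 520 against 420 and 494, with a log2 fold change of −0.41 that was −0.19 without WT mouse 1. Of the 5 oxysterol enzymes, *Hsd3b7* was lower at an unadjusted p under 0.05 (−0.36).

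**Figure D4:**
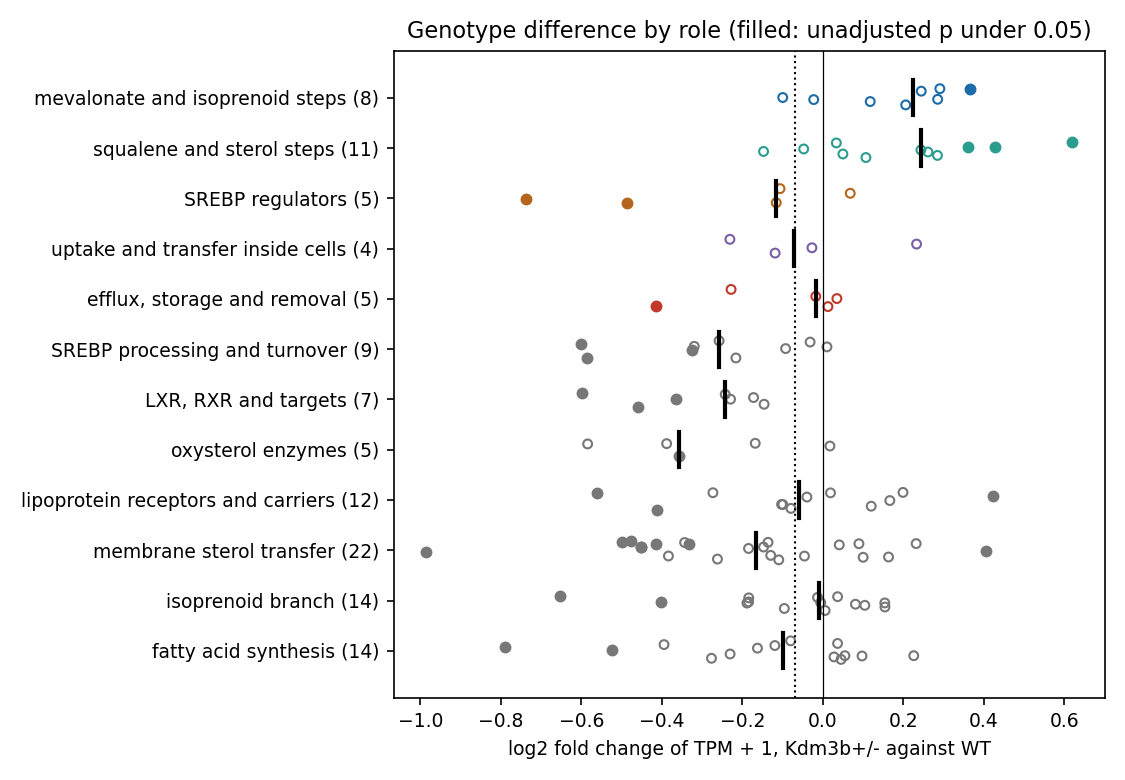
Log2 fold change of TPM + 1 for each tested gene, by role, with the 5 roles of the 33 genes in colour and the other lists in grey (number of tested genes in brackets); black bars are medians, filled points have an unadjusted p under 0.05, and the dotted line is the median of all tested genes. The medians of the synthesis steps (0.23 and 0.24) lie to the right of 0, and those of SREBP processing (−0.26) and of the LXR list (−0.24) to the left.

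Markers of the cell types that could carry these genes were summed in each library. The sums of oligodendrocyte and of astrocyte markers overlapped between the genotypes. The 15 oligodendrocyte markers summed to 16633 to 18147 TPM in WT and 15347 to 18369 TPM in heterozygous animals. *Mbp* made up most of each sum (10521 to 12577 TPM over the libraries), so the overlap says little about the other markers. At an unadjusted p under 0.05, 2 of the 15 were higher, *Opalin* (log2 fold change 0.69) and *Ugt8a* (0.72). Another 2 were lower, *Mal* (−0.46) and *Mobp*. Of all tested genes, 5.47% were higher and 11.5% lower at that p. *Mobp*, a structural protein of myelin, was DEX, with a TPM of 925 and 893 against 471 and 482. The 13 markers of astrocytes and Bergmann glia summed to 1556 to 1675 in WT and 1415 to 1682 in heterozygous animals, with 2 higher and 4 lower. The water channel gene *Aqp4* was DEX among them, with a TPM of 59.2 and 82.3 against 150 and 152. The other higher one was *Hopx* (log2 fold change 0.53). The 4 lower ones were *Gdf10* (−1.03), *Aldh1l1* (−0.69), *Slc1a3* (−0.47) and *Mlc1* (−0.35). Of these 13 markers, 9 had a negative log2 fold change, and the median was −0.14, or −0.21 without WT mouse 1. All 10 Purkinje cell markers had a negative log2 fold change, which 60.4% of all tested genes had (median −0.51), with 5 lower and none higher at an unadjusted p under 0.05. Without WT mouse 1 the median was −0.25, and 4 of the 10 had a positive value.

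No marker list had a gene at 0 in all 4 libraries. The 11 microglia markers summed to 368 to 370 in WT and 385 to 407 in heterozygous animals. At an unadjusted p under 0.05, 2 were higher and none lower, where 5.47% of all tested genes were higher and 11.5% lower. The sums did not overlap between the groups, a pattern that 51.3% of single tested genes showed in either direction. The 7 markers of meningeal fibroblasts summed to 59.7 to 66.3 against 37.0 to 39.8, with 6 tested, 4 lower and 1 higher at an unadjusted p under 0.05. Among them *Fmod*, a proteoglycan of connective tissue, was DEX and lower, and *Lum*, of the same family, was the higher one (log2 fold change 0.95). The sums for endothelial cells and pericytes (299 to 339 against 322 in both heterozygotes) and for oligodendrocyte precursors (19.4 to 24.5 against 22.4 to 25.9) overlapped between the genotypes. Of 6 choroid plexus markers, 4 were below the minimum, *Ttr* among them (0 to 1.28 TPM), and nearly all of the sum was *Otx2*, so this list gave no measure of that tissue. The part of these cell types in the differences of the cholesterol genes was not tested.

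**Figure D5:**
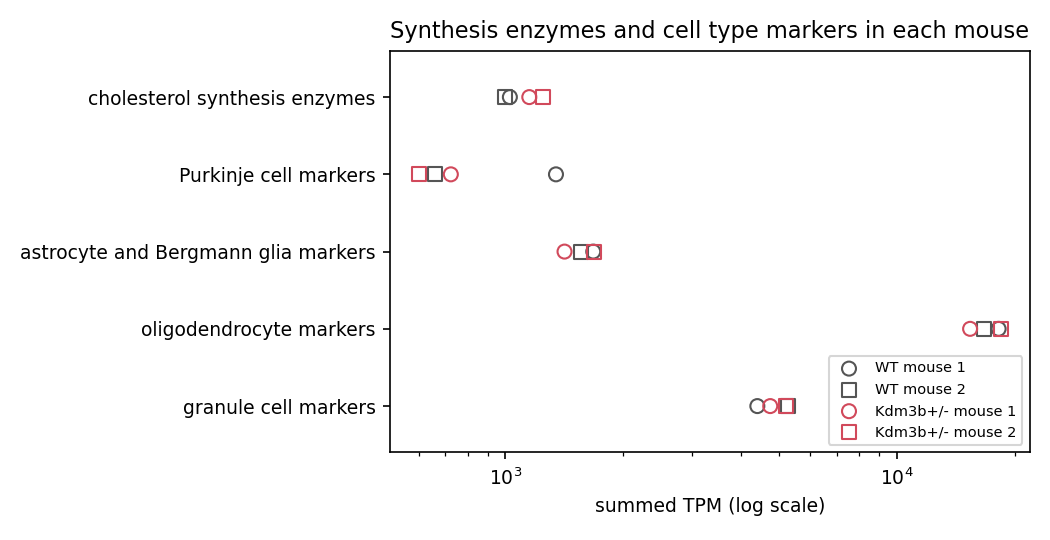
Summed TPM (log axis) of the 19 cholesterol synthesis enzymes and of 4 lists of cell type markers in each mouse. The synthesis enzymes of the *Kdm3b*+/- mice (1150 and 1246) lie above those of the WT mice (1026 and 999), the Purkinje cell markers of WT mouse 1 (1345) lie apart, and the astrocyte, oligodendrocyte and granule cell sums overlap between the genotypes.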

How the data were processed

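RNA of hand-dissected GCE tissue from 2 WT and 2 *Kdm3b*+/- mice was measured by bulk sequencing, and the mice were grouped by the genotype in the labels. Low-quality bases were trimmed, reads were aligned with STAR, and abundances were estimated with StringTie by the authors; versions, genome build and annotation are not given in the sources used here. The deposited tables list coverage (read depth over exons, not normalized), FPKM (as deposited, scaled to length and to mapped fragments) and TPM (as deposited, scaled to length and to a sum of 1000000). Dividing coverage by FPKM gave the aligned gigabases. Symbols came from RefSeq (GRCm38.p6) for 24462 of 24532 identifiers, of which 99.6% lay on the same chromosome as in the tables.

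Genes averaging 1 TPM or more were tested as log2(TPM + 1), a scale that understates the change of low genes, using limma version 3.58.1 under R version 4.3.3 (lmFit, then eBayes with trend; two-sided; no covariate beside genotype), with Benjamini-Hochberg adjustment across all 13652 of them. The study's count model was not used, since TPM values are not counts. The fit was tested on simulated data with normal noise. It called 43.3% of the genes given a log2 change of 0.5 and 97.0% of those given a change of 1, with 12 false calls. Changes of 0.5 were thus often missed, so a gene that is not DEX is not shown to be unchanged. The 33 genes, their roles and the other lists were chosen with earlier results of these data known. All 33 genes are reported. Values for each mouse are given by rule for genes with an unadjusted p under 0.05 and for the 2 most abundant genes of each role, and for others chosen after their values were seen. From each other list the gene with the lowest p in a direction is named, and a few more were chosen after their values were seen.

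Alternatives covered the scale (a pseudocount of 0.1, FPKM, median-ratio scaling, quantile normalization, rescaling TPM after dropping the 20 highest genes, and the highest entry of a repeated identifier), the filter (none, or a mean of 5 TPM), the fit (no trend, robust with statmod version 1.5.0, replicate number as a block), the threshold (the adjusted p alone, or a log2 fold change over 1.2), loess correction for the length and GC content of GENCODE transcripts of GRCm38 (known for 94.5% of tested genes), alone and together with the block, and leaving out each mouse. Python version 3.11.15 with pandas version 2.3.3, NumPy version 2.4.6 and, for figures, Matplotlib version 3.10.9 was used.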

Additional observations from a re-analysis of the deposited data

How the results depend on the processing

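The log2 fold change of each of the 7 genes with an unadjusted p under 0.05 kept its sign under every alternative. With 2 mice a group, intervals are wide, and read counts behind TPM are unknown. The number of DEX genes, 63 in all (16 higher, 47 lower), was 39 with FPKM (14 higher, 25 lower), 1 without a filter on low TPM, 37 without the trend, 33 with a log2 fold change over 1.2, and 600 with the replicate block; median-ratio scaling gave 61 (23 higher, 38 lower). The replicate numbers only name the mice: deviations of same-numbered mice correlated at 0.121 across genes, and at 0.0229 after the length and GC correction. With the block 2 cholesterol genes were DEX, *Msmo1* (adjusted p = 0.026) and *Srebf1* (adjusted p = 0.0236), against 0 without it. With a mouse left out, the lone mouse of a group is assumed to vary like the other group; the DEX count then ran from 21 to 188, that of cholesterol genes from 0 to 1, the higher genes at an unadjusted p under 0.05 from 1 to 4 and the lower ones from 0 to 4. The higher genes were 8 under median-ratio scaling and 8 under quantile normalization (with 1 lower), 11 with the length and GC correction, and 9 with that correction and the replicate block (with 1 lower). The median over the 33 genes, 0.035 on the log2 scale, was 0.15 after the length and GC correction, with and without the block, and ran from 0.011 to 0.18 with a mouse left out; that of the synthesis enzymes ran from 0.089 to 0.30. That of *Kdm3b* ran from −0.40 to −0.15.

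The sign turned for some values near 0. *Npc2* was at 0.036 with FPKM, 0.045 under median-ratio scaling, 0.033 under quantile normalization and 0.15 after the length and GC correction with and without the block. *Cyp46a1* was at 0.045, 0.055, 0.059 and 0.089 in the same order. *Apoe* was at −0.14 under quantile normalization and −0.0080 after the correction with and without the block, and was left out with the 20 highest genes. *Soat1* was left out at a mean TPM of at least 5. With a mouse left out, *Acat2* ran from −0.22 to 0.025, *Insig1* from −0.11 to 0.25, *Insig2* from −0.25 to 0.015, *Npc2* from −0.14 to 0.088, *Apoe* from −0.034 to 0.10 and *Cyp46a1* from −0.33 to 0.30. The cause of these changes was not tested.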

Other observations

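The branches next to cholesterol synthesis were also measured. Of 14 tested genes of fatty acid synthesis, the set on which SREBP1 chiefly acts, 2 were lower and none higher at an unadjusted p under 0.05, where 11.5% of all tested genes were lower, and none was DEX by limma. *Acss2*, which makes acetyl-CoA from acetate, stood at 52.5 and 56.9 TPM in WT and at 33.6 and 42.2 TPM in *Kdm3b*+/- animals (log2 fold change −0.52, limma, adjusted p = 0.179). *Gpam*, the first enzyme of glycerolipid synthesis, stood at 7.71 and 12 TPM in WT and at 3.79 and 6.89 TPM in heterozygous animals (log2 fold change −0.79, limma, adjusted p = 0.215). The median of the 14 genes was −0.10, close to that of all tested genes.

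Of 14 genes that use isoprenoids for prenylation, dolichol or ubiquinone, 2 were lower at an unadjusted p under 0.05, where 11.5% of all tested genes were. *Icmt*, which methylates prenylated proteins, was at 38.3 and 33.6 TPM in WT and at 22.4 and 22.5 TPM in heterozygous animals (log2 fold change −0.65, SE 0.15, limma, adjusted p = 0.112). *Fntb*, a subunit of farnesyltransferase, had a log2 fold change of −0.40. The median of this list was −0.0093.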
